A study of Mus musculus with 36 samples.

Results

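The 10 brains examined here are the 5 heterozygote-labelled and the 5 wild-type samples taken on postnatal day 21 (P21), which are 10 of the 36 libraries in the study. They were chosen by the age and genotype given in the labels and by the matching column names, with no measured value used. All 36 libraries were made from whole-brain RNA with a kit that captures poly(A) transcripts, from male C57BL/6J mice, and the 2 genotypes are wild-type and heterozygous for Myt1l. The other 26 libraries come from P3, with 8 per genotype, and P56, with 5 per genotype, and enter only where the ages are compared. The labels do not name the allele, the cell type in which it acts or the litter of any mouse, and their protocol says that pups of both genotypes were reared together with the mother. The P21 column descriptions start with 11, 16 or 24, a prefix whose meaning is not given: heterozygote-labelled replicates 1 to 3 and wild-type replicate 1 carry 24, wild-type replicates 2 and 3 carry 16, and replicates 4 and 5 of both genotypes carry 11. Separate cultures or pools are not mentioned, so the p-values below measure the spread between these samples.

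Myt1l encodes a zinc-finger transcription factor of neurons that holds genes of other cell fates silent and recruits co-repressor proteins such as SIN3 and CoREST. Loss of a copy causes a neurodevelopmental disorder in people. The third postnatal week of the mouse is the time of rapid synapse formation and myelination and of weaning. Whole brain mixes all its cell types, so a lower value can mean fewer cells of a type or less RNA per cell, and the 2 cannot be told apart here.

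Normalized values summed to between 34492184 and 37840500 per library, and these totals are set by the authors' scaling, so the sequencing depth is unknown. All 29 markers of neurons, glia, vessels and blood that were looked at reached 100 in each of the 10 libraries. Of the markers of absent tissues, Apoa2 of liver stayed between 12.1 and 22.3 and the muscle gene Myh2 between 13.3 and 26.0. The muscle gene Acta1 was higher, between 123 and 273, so it passed 100 in each library too. Alb of liver and Ckm of muscle were not among the genes listed. Heterozygote-labelled replicate 3 lay 2.16 SD from the mean on the first principal component, which held 27.3% of the variance. Wild-type replicate 5 lay -2.61 SD from it on the second component, which held 16.5%, and heterozygote-labelled replicate 5 lay -2.45 SD from it on the third.

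Myt1l itself checks the labels. Its normalized value was 7359, 8135, 7434, 7341 and 8439 in heterozygote-labelled replicates 1 to 5 and 6982, 6360, 7093, 7673 and 7943 in wild-type replicates 1 to 5. The groups overlapped, and replicates 2 and 5 of the heterozygote-labelled group were above the highest wild-type library. The log2 difference was 0.10 (SE 0.0705, limma adjusted p = 0.476), and an exact two-sided permutation test over all 252 assignments gave p = 0.175, where 0.00794 is the smallest possible. The interval of the fold, 0.968 to 1.19, does not reach down to a value of 0.5. Libraries are therefore called heterozygote-labelled throughout, since the total of Myt1l transcripts was not lower in them and gene-level values do not tell the alleles apart. The gene lies on chromosome 12 from 29528384 to 29923213 in GRCm38, on the forward strand, and the genes C630031E19Rik and Gm20208 overlap it on the other strand, which the unstranded libraries do not separate.

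Among the partners of the protein, the CoREST gene Rcor1, a scaffold of the LSD1 demethylase complex, was at 962, 1077, 1068, 986 and 1024 in the heterozygote-labelled replicates and at 937, 892, 892, 901 and 924 in wild-type. Its groups did not overlap, at a log2 difference of 0.17 (SE 0.0607), and its limma adjusted p was 0.303. The groups of 1.98% of all genes tested did not overlap. The relatives Myt1 and St18 differed by 0.20 and -0.16 and the co-repressor Sin3a by -0.12 on the log2 scale, each with overlapping groups. Of the 11 genes of the family and its co-repressors, 5 were higher and 6 lower, with a median of -0.033, against -0.022 over all genes. That median was 0.031, with 7 of 11 genes higher, without wild-type replicate 5, 0.011 without both libraries beyond 2 SD, and above 0 with a common library total.

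Across all genes, limma called 0 of 17157 genes at an adjusted p under 0.05, which is 0% of those tested, and the smallest adjusted p was 0.210. Without adjustment, 2531 genes (14.8%) had a p under 0.05, of which 1234 (7.19% of all genes) were higher and 1297 (7.56%) lower in the heterozygote-labelled brains. With every library set to a common total the split was 1871 higher and 568 lower. With the prefix as a block, 575 genes (3.35%) were higher and 448 (2.61%) lower at that level, and 0 passed adjusted. The groups of 160 genes (0.933%) lay apart with the heterozygote-labelled brains higher and of 180 (1.05%) with them lower. Since no gene passed in these 10 libraries alone, the words higher and lower below describe values, and counts of members are read against these shares.

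Nuclear long non-coding RNAs stood highest in the heterozygote-labelled brains. These transcripts stay in the nucleus, where Malat1 sits in splicing speckles, Neat1 builds paraspeckles, and Meg3 and Snhg14 are products of imprinted clusters. Of 13 measured, 12 were higher in the heterozygote-labelled brains, where 44.6% of all genes were higher and 55.4% lower. Of these, 10 had an unadjusted p under 0.05 (7.19% of all genes), and the median log2 difference was 0.63. Malat1 was at 27090, 31019, 60397, 21103 and 33982 in heterozygote-labelled replicates 1 to 5 and at 21520, 19355, 13519, 19600 and 23461 in wild-type replicates 1 to 5. Replicate 3 stood highest, and only replicate 4 fell inside the wild-type range. The log2 difference of Malat1 was 0.76 (SE 0.249).

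Meg3, one of the most abundant transcripts of the table, was at 89523, 132680, 199820, 66831 and 105140 in the heterozygote-labelled libraries and at 79579, 76707, 64164, 60399 and 66300 in wild-type. Neat1 was at 1255, 1353, 2016, 948 and 1296 against 975.4, 808, 758, 941 and 838. Snhg14, the long transcript that runs through the imprinted Ube3a region, was at 6320, 9178, 14757, 4575 and 7828 against 5184, 4490, 3330, 4023 and 4359. All of these put replicate 3 on top and replicate 4 within the wild-type range. Their log2 differences were 0.68 for Meg3 (SE 0.237), 0.63 for Neat1 (SE 0.154) and 0.90 for Snhg14 (SE 0.266), each at a limma adjusted p of 0.303.

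**Figure D1:**
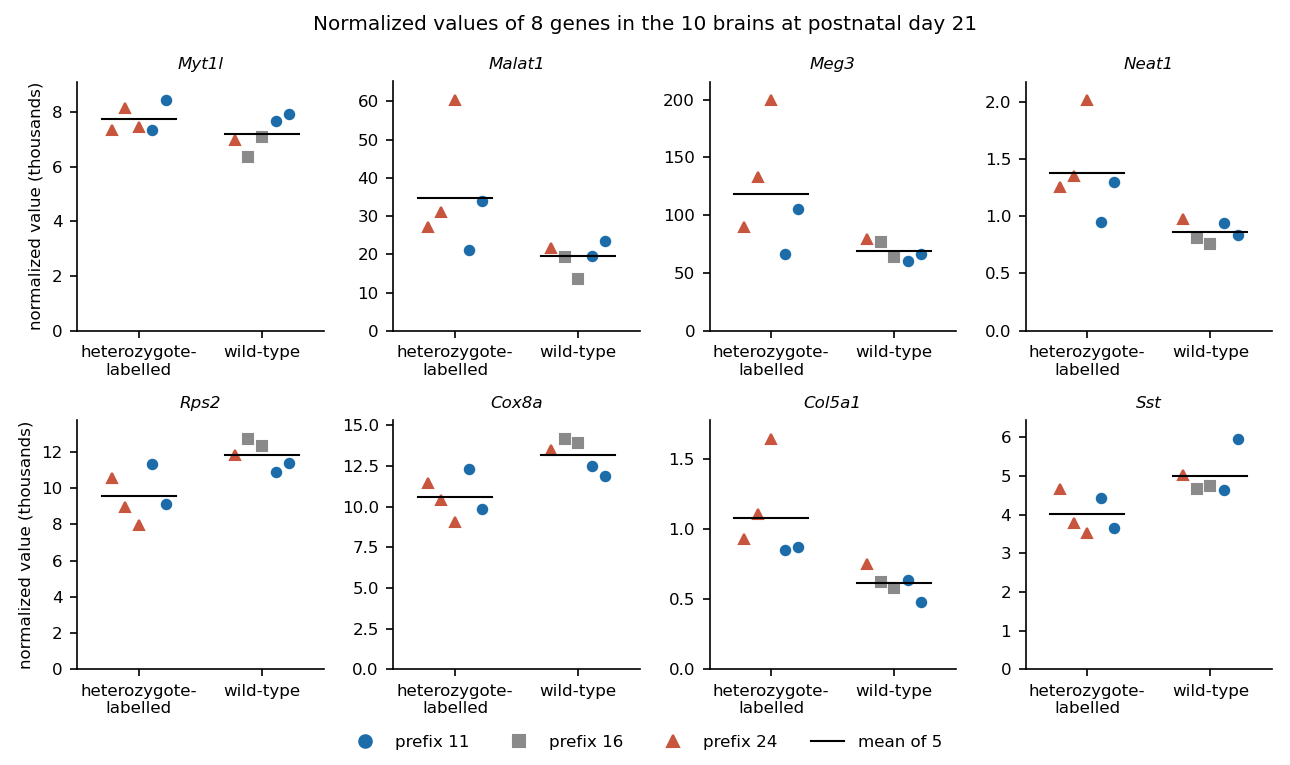
Normalized values divided by 1000, on axes from 0, of 8 genes in the 5 heterozygote-labelled and 5 wild-type brains at P21, with marker and colour giving the description prefix and the black line the mean of 5. Malat1 reached 60397 and Meg3 199820 in heterozygote-labelled replicate 3, while the groups overlapped for Myt1l.

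Other non-coding classes were also on the higher side. Genes that the annotation lists as to be experimentally tested (TEC) were higher in 317 of 389 cases, 98 of them with an unadjusted p under 0.05 and 1 lower at that level. Their median log2 difference was 0.38, and without heterozygote-labelled replicate 3 it was 0.24, with 47 genes higher and 1 lower at that level. Sense intronic transcripts stood higher for 31 of 36, 13 of them at that level, at a median of 0.51. Without that replicate their median was 0.26 with 4 genes at that level, and with a minimum value of 50 it was 0.19. By comparison, lincRNAs had a median of 0.052, antisense RNAs of 0.027 and protein-coding genes of -0.030.

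Averaged over the nuclear long non-coding RNAs, the 5 heterozygote-labelled libraries lay 0.29, 0.69, 1.17, 0.0079 and 0.59 above the wild-type mean on the log2 scale, and the wild-type libraries between -0.17 and 0.11. Over the TEC genes the heterozygote-labelled libraries lay at 0.11, 0.47, 0.89, -0.025 and 0.48, with wild-type between -0.18 and 0.13. In both lists replicate 3 was highest, replicates 2 and 5 followed, and replicate 4 was inside the wild-type range. Without replicate 3 the median of the nuclear RNAs was 0.48 with 12 of 13 higher, and without the 2 libraries beyond 2 SD it was 0.47 with 13 of 13. With the prefix as a block the median was 0.50, within prefix 11 alone 0.32, and within prefix 24 alone, where there is 1 wild-type library, 0.63.

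Genes that regulate splicing, many of which make transcripts with retained introns, were higher as well. Of 36 SR proteins and other regulators, 27 were higher, 16 with an unadjusted p under 0.05 and 0 lower at that level, and the median log2 difference was 0.20. Without heterozygote-labelled replicate 3 the median was 0.11 with 13 genes at that level, and within prefix 11 it was 0.089 with 3. Srsf11, an SR-family splicing factor, was at 3722, 4710, 6938, 3209 and 4570 in heterozygote-labelled and at 3367, 3265, 2971, 2942 and 3228 in wild-type replicates. Srrm2, a scaffold of nuclear speckles, was at 21079, 25574, 38197, 17757 and 20478 against 18701, 18688, 15127, 14097 and 16419. For both genes replicate 3 was the highest library and replicate 4 overlapped wild-type. The speckle gene Pnisr showed a log2 difference of 0.73 (SE 0.235) and the RNA helicase gene Ddx17 one of 0.36.

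Core components of the spliceosome went the other way in most cases. Of 38 genes, 31 were lower, 11 with an unadjusted p under 0.05, and the median was -0.11. At that level 4 were lower without heterozygote-labelled replicate 3 and 5 without wild-type replicate 5. Snrpg, an Sm protein of the snRNP core, was at 378, 397, 249, 409 and 269 in the heterozygote-labelled brains and at 427, 480, 483, 534 and 503 in wild-type, with no overlap (log2 difference -0.54, SE 0.138). The U4/U6 factor Prpf3 and the U1 protein gene Snrnp70 were on the higher side, at 0.42 and 0.41. Chromatin regulators mutated in neurodevelopmental disorders, such as the histone methyltransferase gene Kmt2a (log2 difference 0.44, SE 0.153), were higher in 56 of 70 cases, 13 with an unadjusted p under 0.05, at a median of 0.090. Removing a length trend left them at a median of 0.024, and 7 were higher at that level without heterozygote-labelled replicate 3.

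Among the groups that were lower together were the ribosomal protein genes, whose annotated exons sum to a short length. Every one of the 33 genes of the small ribosomal subunit was lower in the heterozygote-labelled brains, 26 with an unadjusted p under 0.05, and 47 of 49 genes of the large subunit were, 39 of them at that level. The medians were -0.22 and -0.21. Rps2 was at 10576, 8971, 7943, 11332 and 9115 in heterozygote-labelled and at 11826, 12722, 12324, 10897 and 11403 in wild-type replicates. Rplp1, a protein of the ribosomal stalk, was at 9188, 7982, 6460, 9848 and 7336 against 9969, 10109, 10895, 9714 and 9910. Here replicate 3 was the lowest library and replicate 4 the one that reached into the wild-type range, the reverse of the nuclear RNAs.

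Of the ribosomal proteins, Rps29, Rpl17, Rpl36a and Rpl39 had groups that did not overlap. Rps29, a small zinc-binding protein of the small subunit, was at 4744, 4727, 3230, 4714 and 4014 against 5374, 4757, 5796, 5530 and 4975 (log2 difference -0.31, SE 0.102). The highest heterozygote-labelled and the lowest wild-type library were thus nearly level. The log2 difference was -0.22 for Rpl36a, -0.32 for Rpl31, -0.32 for Rps28, -0.26 for Rpl39 and -0.26 for Rpsa, which also binds laminin. Mitochondrial ribosomal proteins were lower in 77 of 78 cases, 21 with an unadjusted p under 0.05, and translation factors in 46 of 47, 15 at that level, with medians of -0.15 and -0.13. Without heterozygote-labelled replicate 3 these counts at that level were 7 and 8, with medians of -0.10 and -0.090. Without wild-type replicate 5 they were 11 and 11. The elongation factor gene Eef1a1 differed by -0.22 (SE 0.0786) and the poly(A)-binding protein gene Pabpc1 by -0.16.

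To show what the ribosomal genes carry at their starts, the sequence from 60 bases before to 20 bases after the annotated start is given for 6 ribosomal protein genes, with Malat1 as an example of the group that was higher. The sequences are from RefSeq (GRCm38.p6), written 5′ to 3′ on the strand of the gene, and capitals mark AAGTT or its reverse complement AACTT, the core motif bound by MYT-family zinc fingers.
Rps2 (chr17:24720003-24720082, forward strand): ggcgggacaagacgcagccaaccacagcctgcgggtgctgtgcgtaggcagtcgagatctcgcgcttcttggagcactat
Rpsa (chr9:120127706-120127785, forward strand): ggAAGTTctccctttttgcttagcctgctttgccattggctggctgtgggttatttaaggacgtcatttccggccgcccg
Rps28 (chr17:33824543-33824622, reverse strand): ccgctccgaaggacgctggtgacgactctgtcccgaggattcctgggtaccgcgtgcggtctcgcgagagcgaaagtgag
Rpl36a (chrX:134585594-134585673, forward strand): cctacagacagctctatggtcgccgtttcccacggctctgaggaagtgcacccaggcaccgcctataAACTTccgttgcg
Rpl39 (chrX:37085203-37085282, reverse strand): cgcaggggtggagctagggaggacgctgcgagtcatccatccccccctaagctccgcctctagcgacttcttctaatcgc
Rpl31 (chr1:39367791-39367870, forward strand): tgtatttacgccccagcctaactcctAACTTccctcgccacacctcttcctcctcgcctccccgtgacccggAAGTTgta
Malat1 (chr19:5802653-5802732, reverse strand): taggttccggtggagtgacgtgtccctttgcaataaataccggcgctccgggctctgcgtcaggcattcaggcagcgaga
Of these 6 genes, Rpsa, Rpl36a and Rpl31 hold a match here and Rps2, Rps28 and Rpl39 do not. In the full windows of 300 bases, from 250 before to 50 after each start, AAGTT was found on either strand in 20 of the 61 ribosomal protein genes with an entry (32.8%), in 27 of 65 oxidative phosphorylation genes (41.5%) and in 4 of 10 nuclear long non-coding RNAs. Of all 12459 tested genes with an entry, 36.5% held it. A match is a description of letters and not of binding.

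Nuclear genes of oxidative phosphorylation were lower in step with the ribosome. All 36 genes of respiratory complex I, the NADH dehydrogenase, were lower, 24 with an unadjusted p under 0.05, at a median of -0.20. All 14 genes of complexes II and III, 12 of 12 of cytochrome c oxidase and 17 of 18 of ATP synthase were lower, with medians of -0.19, -0.23 and -0.21. Cox8a, a cytochrome c oxidase subunit, was at 11429, 10438, 9060, 12327 and 9850 in heterozygote-labelled and at 13471, 14178, 13938, 12507 and 11888 in wild-type replicates. Cox6c was at 6247, 5277, 5216, 6415 and 5626 against 6680, 7047, 6698, 6556 and 6674, with no overlap (log2 difference -0.23, SE 0.0670).

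Of 15 transcripts of the mitochondrial genome, 11 were lower, 3 with an unadjusted p under 0.05, at a median of -0.074. This median depended on the libraries used. It was -0.13, with 13 lower and 7 of them at that level, without wild-type replicate 5, and -0.14, with 14 lower and 9 at that level, without both libraries beyond 2 SD. It was 0.093 within prefix 11, -0.21 within prefix 24, and above 0 with quantile normalization or with a length trend removed. The small mitochondrial ribosomal RNA mt-Rnr1 was at 89734, 89127, 83280, 99659 and 101050 against 109990, 115850, 120990, 103840 and 119800, with no overlap (log2 difference -0.30, SE 0.0735), and the large one, mt-Rnr2, differed by -0.25. Proteasome genes were lower in 36 of 36 cases, 11 with an unadjusted p under 0.05, at a median of -0.14. All 36 remained lower without heterozygote-labelled replicate 3 or without wild-type replicate 5, with 2 and 3 at that level. Psmb5, a catalytic subunit, differed by -0.27 (SE 0.0934).

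Averaged over the 82 cytosolic ribosomal proteins, the heterozygote-labelled libraries lay -0.060, -0.25, -0.42, -0.0135 and -0.28 from the wild-type mean, and the wild-type libraries lay between -0.052 and 0.055. Averaged over the 80 oxidative phosphorylation genes they lay at -0.055, -0.26, -0.44, -0.0027 and -0.23, with wild-type between -0.047 and 0.061. Replicates 2, 3 and 5 were well below all wild-type libraries in both lists, replicate 1 was just below them, and replicate 4 was not. Without heterozygote-labelled replicate 3 the ribosomal median went from -0.21 to -0.15 with 34 of 82 genes lower at an unadjusted p under 0.05, and with the prefix as a block to -0.17 with 10 of 82. The oxidative phosphorylation list, with 57 of 80 lower at that level, had 34 without that replicate, at a median of -0.14, and 25 without both libraries beyond 2 SD, at -0.12. Within prefix 11 alone the ribosomal median was -0.088 and the oxidative phosphorylation median -0.13. Each list had 0 genes at that level there, which 2 libraries per genotype seldom allow. With a common library total the ribosomal median was -0.16 and that of the nuclear long non-coding RNAs 0.68.

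**Figure D2:**
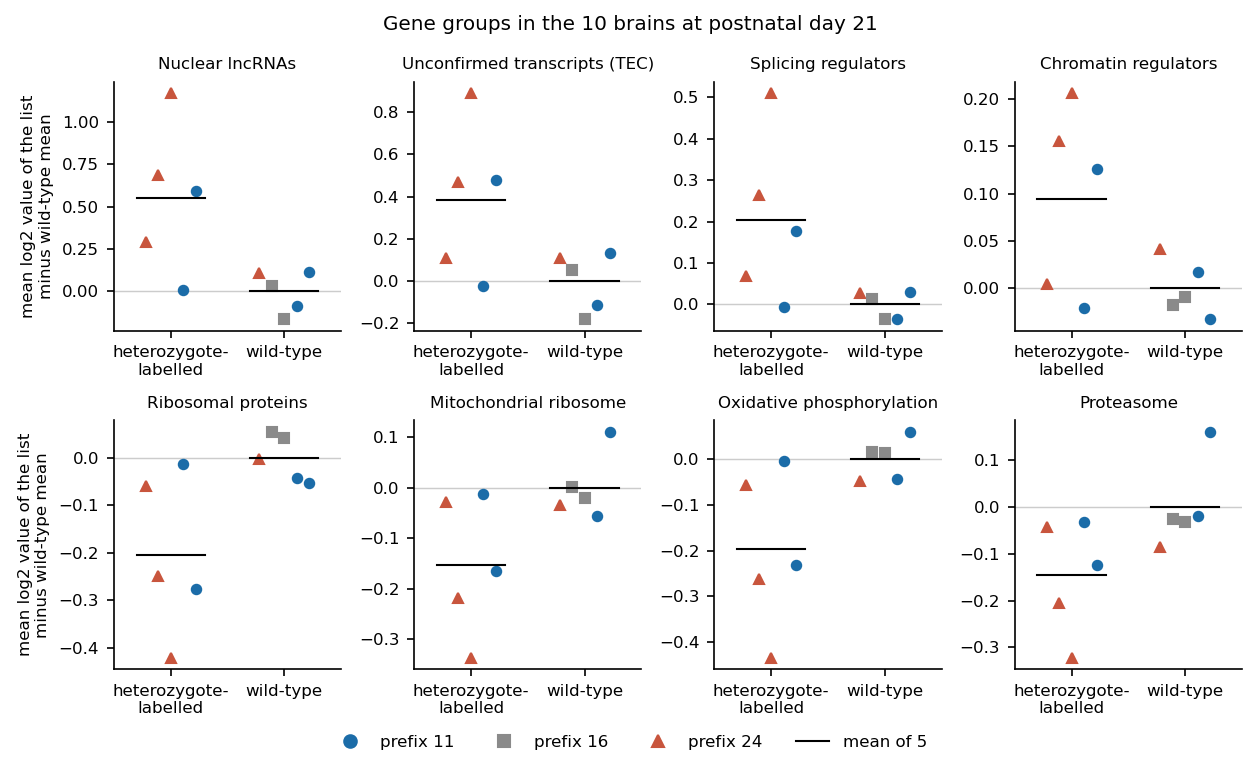
Mean log2 value of the members of 8 gene groups in each P21 library minus the mean of the 5 wild-type libraries, with marker and colour giving the description prefix and the black line the mean of 5. Heterozygote-labelled replicate 3 is the highest library in the upper row, at 1.17 for nuclear lncRNAs, and the lowest in the lower row, at -0.42 for ribosomal proteins, and replicate 4 lies in or near the wild-type range.

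The difference between the groups followed gene length, though not in every heterozygote-labelled library. Protein-coding genes were divided into 5 classes of like size by the summed length of their annotated exons. The sum takes all transcripts of a gene and counts overlaps once. The median log2 difference was -0.13 in the shortest class, then -0.072, -0.033 and 0.0061, and 0.049 in the longest. In the shortest class 557 of 3016 genes were lower and 51 higher at an unadjusted p under 0.05, and in the longest 63 were lower and 428 higher. Without heterozygote-labelled replicate 3 these counts were 261 and 34, and 37 and 261, with medians of -0.083 and 0.039. Averaged over the shortest class, heterozygote-labelled replicates 1 to 5 lay at -0.00062, -0.13, -0.21, 0.023 and -0.12 from the wild-type mean. The wild-type libraries lay between -0.037 and 0.040. Over the longest class the replicates lay at -0.00012, 0.10, 0.16, 0.0063 and 0.11, with wild-type between -0.047 and 0.028. Replicates 1 and 4 were inside the wild-type range in both classes. The ribosomal and oxidative phosphorylation lists have a median summed exon length of 1754 and 1737 bases, against 4138 over all genes. Of the other lists that were lower, the proteasome has one of 2814 and the translation factors one of 3812. The interneuron and peptide genes have one of 1318 and the genes of immature neurons one of 5921. Of the lists that were higher, the nuclear long non-coding RNAs have one of 9293 and the splicing regulators one of 7411. The chromatin regulators have one of 11772 and the olfactory bulb genes one of 2432. After removal of a length trend, the ribosomal median was -0.12, the oxidative phosphorylation median -0.098 and the nuclear RNA median 0.51.

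The order also followed annotated intron retention. Coding genes with no retained-intron transcript in the annotation had a median of -0.054, those with 1 of -0.044, those with 2 of -0.023, and those with 3 or more of 0.037. Of the last class 429 of 2960 genes were higher and 165 lower at an unadjusted p under 0.05, and without heterozygote-labelled replicate 3 256 were higher and 88 lower. The last class also has the greatest summed exon length, with a median of 6622 bases against 3453 in the first. Retained-intron transcripts are among those summed, so the 2 measures are linked in part by how they were made. The 2 properties were not separated. RNA integrity and read coverage along genes are not given in the labels, and their part in these differences was not tested.

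**Figure D3:**
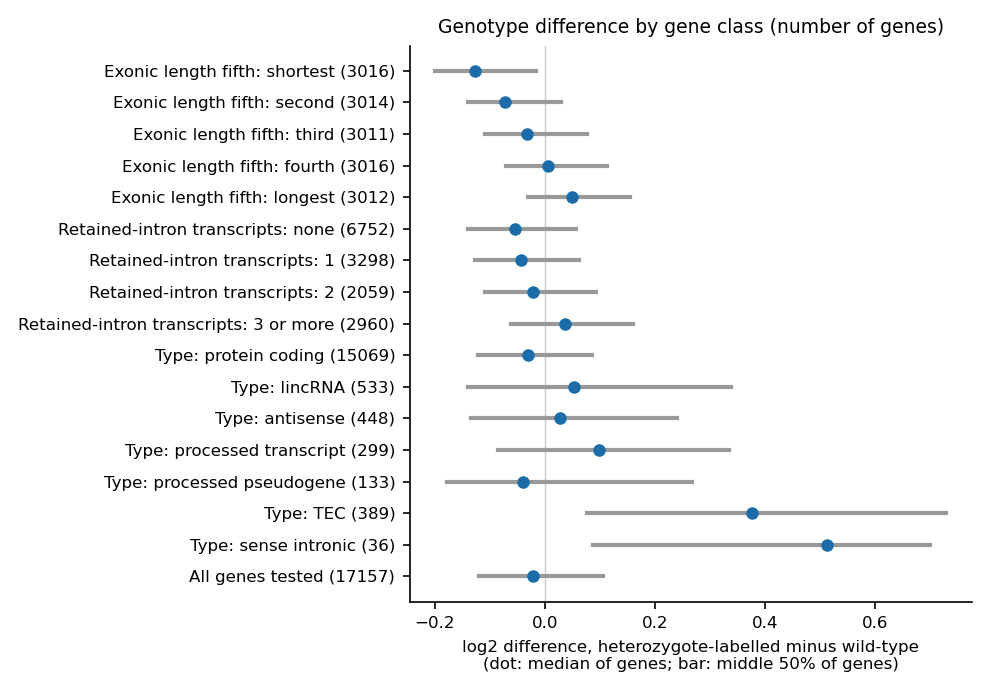
Log2 difference between heterozygote-labelled and wild-type P21 brains for classes of genes, where the dot is the median over genes, the bar the middle 50% of genes and the number in brackets how many genes were tested. Medians go from -0.13 in the shortest to 0.049 in the longest exon class and stand at 0.38 for TEC and 0.51 for sense intronic transcripts.

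Single genes were also measured in a model of all 36 libraries, which takes the spread from the 3 ages together. It called 43 of 18840 genes for the P21 difference (0.228%), of which 39 rose and 4 fell. The model gives a gene the same spread in every group, and some called genes spread unevenly at P21. Smpd4 had an SD of 602 in heterozygote-labelled and 65.9 in wild-type P21 libraries, Firre 753 and 132, and 3110082I17Rik 18.1 and 23.0. The calls rest on that shared spread. Of the 43, 20 were not protein-coding (46.5%, against 16.7% of the 18827 tested genes with an annotation) and 10 were TEC genes (23.3% against 4.59%). Another annotated gene overlapped 30 of them on one strand or the other (69.8% against 56.8%). No test was made of these shares. All of these calls are absent from the fit of the P21 libraries alone, where the adjusted p of those tested was 0.210 or 0.303.

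Ermard, a gene linked to neuronal migration, rose in the model of all libraries, with 446, 502, 537, 400 and 502 in the heterozygote-labelled and 385, 270, 292, 309 and 275 in the wild-type brains (log2 difference 0.64, limma adjusted p = 0.0195). Trim7, a ubiquitin ligase gene, rose from 44.7 ± 3.11 to 69.3 ± 4.80 (SD, n = 5 each; limma adjusted p = 0.0132), and Dna2, a nuclease and helicase of DNA replication, rose from 42.6 ± 8.55 to 78.0 ± 16.9 (SD, n = 5 each; limma adjusted p = 0.0195). In all of these the heterozygote-labelled and wild-type ranges were apart. Zfp280c, Stag1 (a cohesin subunit gene), Smpd4, Nfxl1, Sass6 and Prpf3 rose too, with log2 differences from 0.28 for Stag1 to 0.65 for Smpd4. The groups overlapped for Sass6 and Prpf3. The TEC gene Gm37204, also called, lies within Stag1 on the same strand.

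The nuclear RNAs Neat1 and Firre, an X-linked RNA of nuclear architecture, were among the calls. Firre was at 1870, 2803, 3544, 1669 and 2497 against 1696, 1730, 1521, 1429 and 1493, so that heterozygote-labelled replicate 4 overlapped wild-type. The 4 genes that fell were Nr2f1, a nuclear receptor that patterns the cortex, Vps37d, 3110082I17Rik and the TEC gene Gm42429. Nr2f1 was at 1861, 1767, 1498, 1899 and 1569 against 2130, 2041, 2008, 1880 and 2212 (log2 difference -0.26, limma adjusted p = 0.0460). Gm42429 was listed at 0 in 4 heterozygote-labelled libraries and at 12.5 in replicate 4, against 20.5 to 43.5 in wild-type.

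Extracellular matrix genes were also among the calls, among them Adamts6, a matrix protease gene (log2 difference 0.60). The fibrillar collagen gene Col5a1 was at 934, 1110, 1647, 853 and 872 in heterozygote-labelled and at 753, 622, 578, 638 and 480 in wild-type replicates, with no overlap, and it rose in the model of all libraries (log2 difference 0.79, limma adjusted p = 0.0295). Col6a1, of the beaded-filament collagen VI, rose in it as well (log2 difference 0.54, limma adjusted p = 0.0368). Col11a1 was at 717 ± 192 against 426 ± 43.2 (SD, n = 5 each) and Col5a3 differed by 0.39, both without a call. Over the whole list of 32 meningeal and fibrillar matrix genes, 18 were higher and 14 lower, with a median of 0.023 that was -0.083, with 21 lower and 7 of them at an unadjusted p under 0.05, without wild-type replicate 5. Lamb1 and Agrn of the basement membrane differed by 0.30 and 0.28, and 23 of the 32 genes of that list were higher, at a median of 0.11 that was -0.014 without wild-type replicate 5.

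Cilium genes were mixed. Of 36 genes of the BBSome and intraflagellar transport, 18 were higher and 18 lower, with 6 higher and 3 lower at an unadjusted p under 0.05, and without wild-type replicate 5 22 were higher and 14 lower. Bbs2, a subunit of the BBSome, which carries membrane proteins through the cilium, was at 795, 812, 805, 704 and 760 in heterozygote-labelled and at 560, 727, 511, 546 and 535 in wild-type replicates. Only wild-type replicate 2 reached into the heterozygote-labelled range. The transport gene Ift172 was at 1957, 1930, 2782, 1742 and 1838 against 1680, 1712, 1510, 1274 and 1312, with no overlap (log2 difference 0.44, SE 0.124). Ttc8 and Bbs5, both of the BBSome, differed by 0.41 and 0.46. Cplane1, a ciliogenesis gene, was at 9176 in heterozygote-labelled replicate 4 and between 1525 and 2551 in the other 4, against 1155 to 1490 in wild-type.

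Lists of synaptic proteins had medians somewhat below the -0.022 of all genes. Of 40 presynaptic genes 14 were higher and 26 lower, 2 and 3 of them with an unadjusted p under 0.05, at a median of -0.060. Of 30 postsynaptic scaffolds 9 were higher and 21 lower, 0 and 6 of them at that level, at a median of -0.070. Over all genes 7.19% were higher and 7.56% lower at that level. The presynaptic median was -0.018 without heterozygote-labelled replicate 3, -0.019 without wild-type replicate 5, 0.027 without both, and above 0 with quantile normalization. The postsynaptic median was -0.0066, with 14 higher and 16 lower, without wild-type replicate 5, and 0.0057 with library quality weights. The scaffold gene Dlg4, which encodes PSD-95, was at 25713, 24399, 22751, 27663 and 26031 against 29325, 29442, 29346, 27659 and 29674, so that heterozygote-labelled replicate 4 exceeded the lowest wild-type library by a few units. The vesicle SNARE gene Vamp2 differed by -0.19 with no overlap. On the higher side stood the T-type calcium channel genes Cacna1h (log2 difference 0.54, SE 0.155) and Cacna1g (0.28) and the priming factor gene Unc13a (0.28). Of 26 genes of voltage-gated sodium and calcium channels 17 were higher and 9 lower, 5 and 1 of them with an unadjusted p under 0.05. Their median was 0.065, and -0.017 within prefix 11.

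Several neuropeptide genes of interneurons and striatal neurons were lower. Sst, the somatostatin gene, was at 4653, 3776, 3535, 4427 and 3659 in heterozygote-labelled and at 5017, 4660, 4738, 4624 and 5959 in wild-type replicates, with the highest heterozygote-labelled library between the lowest wild-type ones. Penk, the enkephalin precursor, was at 5447, 4574, 4073, 5317 and 4167 against 5961, 5214, 5737, 5673 and 6208. Vip and Nts differed by -0.29 and -0.35, and the groups of Nts did not overlap. Heterozygote-labelled replicate 3 was lowest in each of Sst, Penk, Vip and Nts. The full list of 25 interneuron and peptide genes was lower in 18 cases, 5 (20%) at an unadjusted p under 0.05. Its median was -0.068, and 0.0037 without that replicate. The genes of this list are short, with a median summed exon length of 1318 bases. In the shortest exon class of coding genes the median was -0.13, and 18.5% were lower at that level. Of 18 genes of striatal projection neurons 4 were higher and 14 lower, 2 and 1 of them at that level, at a median of -0.060.

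Genes of immature neurons held the short actin-binding thymosin gene Tmsb10, at 4195, 3842, 3526, 4103 and 3766 against 4552, 4935, 4963, 4338 and 5086, with no overlap (log2 difference -0.30, SE 0.0663). The growth-cone genes Marcksl1 and Basp1 differed by -0.34 and -0.25. Of the 41 genes of this list 17 were higher and 24 lower, with 2 and 8 at an unadjusted p under 0.05, at a median of -0.098 that was -0.043 without heterozygote-labelled replicate 3 and -0.048 without wild-type replicate 5. The 500 genes that differed most upward from P3 to P56 in wild-type brains had a median of -0.018 at P21, and the 500 that differed most downward had one of 0.0013, against -0.022 over all genes. These medians were -0.053 and -0.015 without wild-type replicate 5. Cell cycle and progenitor genes stood at 19 higher and 19 lower, and at 17 and 21 without that library.

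Cell type lists differed more between single libraries than between the groups. Wild-type replicate 5 lay -0.88 from the wild-type mean for endothelial genes, -0.58 for myelin, -0.50 for astrocytes and -0.40 for microglia, and 0.25 above it for cortical projection neurons. Of 25 microglial genes 23 were lower, 0 with an unadjusted p under 0.05, and their median of -0.16 was 0.165 within prefix 11 and -0.35 within prefix 24. Without wild-type replicate 5, 24 microglial genes were lower, 15 at that level, at a median of -0.27, and without heterozygote-labelled replicate 3 the median was -0.10. Astrocyte genes were lower in 19 of 24 cases, and their median of -0.088 was 0.185 within prefix 11 and -0.29 within prefix 24. All 24 were lower without wild-type replicate 5, 18 at an unadjusted p under 0.05, at a median of -0.24. Of 26 myelin genes 13 were higher and 13 lower, but without wild-type replicate 5 24 were lower, 7 at that level, at a median of -0.16. Within prefix 11, 26 of these myelin genes were higher, and within prefix 24, 3 were. Endothelial genes were lower in 12 of 20 cases at a median of -0.035, which was -0.24, with 12 genes lower at an unadjusted p under 0.05, without wild-type replicate 5, and above 0 with the prefix as a block or with a common library total.

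Erythroid genes were lower in 10 of 10 cases, 7 with an unadjusted p under 0.05, with a median of -0.87, and this followed the prefix. The haemoglobin gene Hbb-bs was at 9922, 6589, 7410, 14086 and 12130 in heterozygote-labelled and at 11252, 28199, 28079, 12282 and 21110 in wild-type replicates. The 2 wild-type libraries of prefix 16, which has no heterozygote-labelled sample, were the highest. Alas2, the first enzyme of haem synthesis in red cells, had the same 2 libraries on top, at 1247 and 1316. With the prefix as a block the median of the list was -0.32, within prefix 11 it was -0.25 and within prefix 24 -0.42. How much blood stayed in each brain is not given in the labels, and its part in these values was not tested.

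Genes of the choroid plexus were higher in 19 of 19 cases, 2 of them with an unadjusted p under 0.05, at a median of 0.19. The prolactin receptor gene Prlr was at 232, 372, 347, 347 and 255 against 216, 177, 319, 234 and 119, with overlap. The list mean lay -0.60 from the wild-type mean in wild-type replicate 5 and -0.38 from it in heterozygote-labelled replicate 5, and the median was 0.032, with 13 of 19 higher, without the first of these. Olfactory bulb genes were higher in 15 of 18 cases, at a median of 0.12, among them Cdhr1, a cadherin-related gene of mitral cells (log2 difference 0.48, SE 0.140) and Th, of dopamine synthesis (0.28). Of the immediate-early genes, which neurons induce on firing, 24 of 28 were lower, 3 (10.7%) with an unadjusted p under 0.05, at a median of -0.14. Over all genes 7.56% were lower at that level. The list means of the groups overlapped, from -0.21 to -0.057 in heterozygote-labelled and from -0.18 to 0.18 in wild-type libraries.

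**Figure D4:**
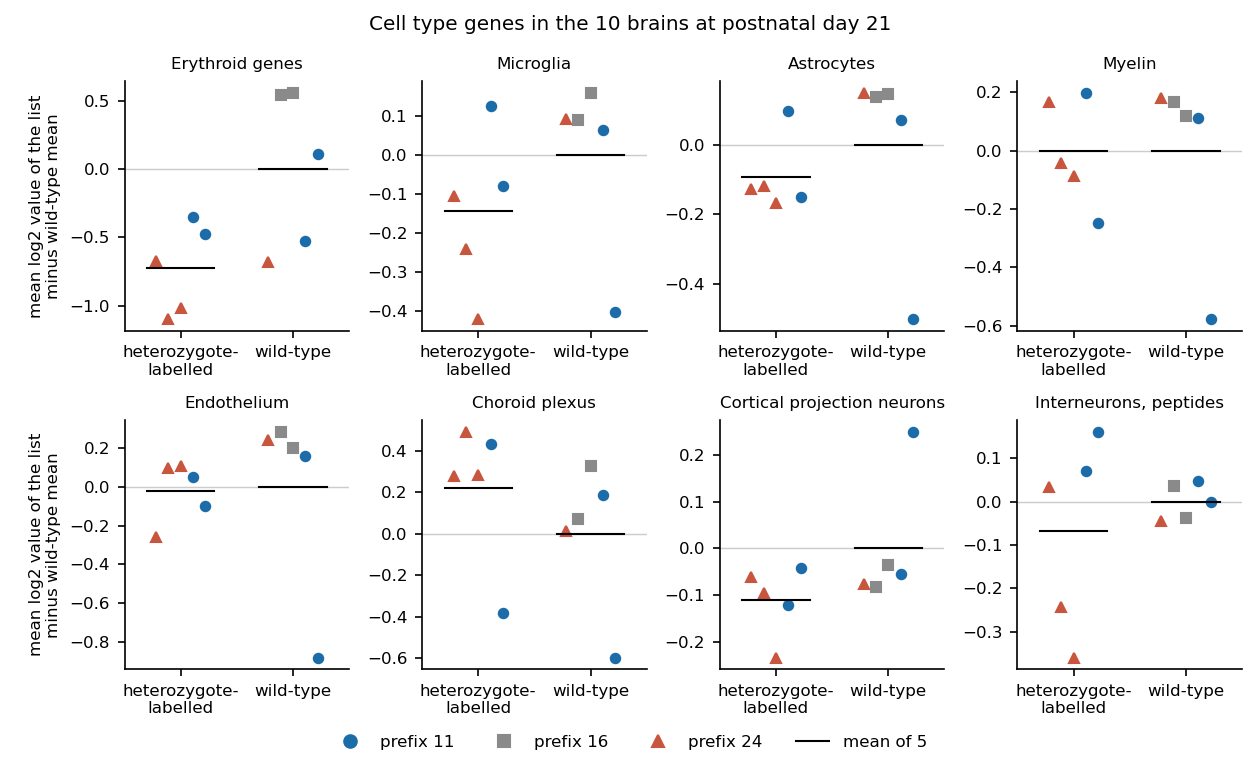
Mean log2 value of the members of 8 cell type lists in each P21 library minus the mean of the 5 wild-type libraries, drawn as in the plot of gene groups. Wild-type replicate 5 lies lowest for endothelium, at -0.88, and for myelin, at -0.58, and the 2 prefix 16 libraries lie highest for erythroid genes, at 0.54 and 0.56.

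The P21 difference was set beside that of the other ages, with which it shares no library. The median of the nuclear long non-coding RNAs was 0.63 at P21, 0.097 at P3 and 0.12 at P56. For TEC genes it was 0.38, 0.066 and 0.15. The ribosomal medians of the small and large subunit were 0.0056 and -0.00093 at P3 and both -0.14 at P56, and complex I stood at -0.017 at P3 and -0.15 at P56. Differences between ages were tested gene by gene and not for lists. Limma called 0 of 18840 genes for a different effect at P21 than at P3 (0% of those tested), with 1097 at an unadjusted p under 0.05 (5.82%).

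Against P56 it called 1 gene (0.00531%), with 798 at an unadjusted p under 0.05 (4.24%). This was Gm31513, a predicted gene, with log2 differences of 0.47 at P21 and -2.35 at P56 (limma adjusted p = 0.0282). Its values were low. The heterozygote-labelled and wild-type means were 10.4 and 7.29 at P21, with overlapping groups, and 1.62 and 11.9 at P56. The call was lost when heterozygote-labelled replicate 3, 4 or 5 was left out, or replicate 1, 3, 4 or 5 of wild-type. Of the genes nearest to a difference from P3, Tex14, a gene of germ cell bridges, had log2 differences of -1.70 at P21 and 0.98 at P3 (limma adjusted p = 0.298).

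**Figure D5:**
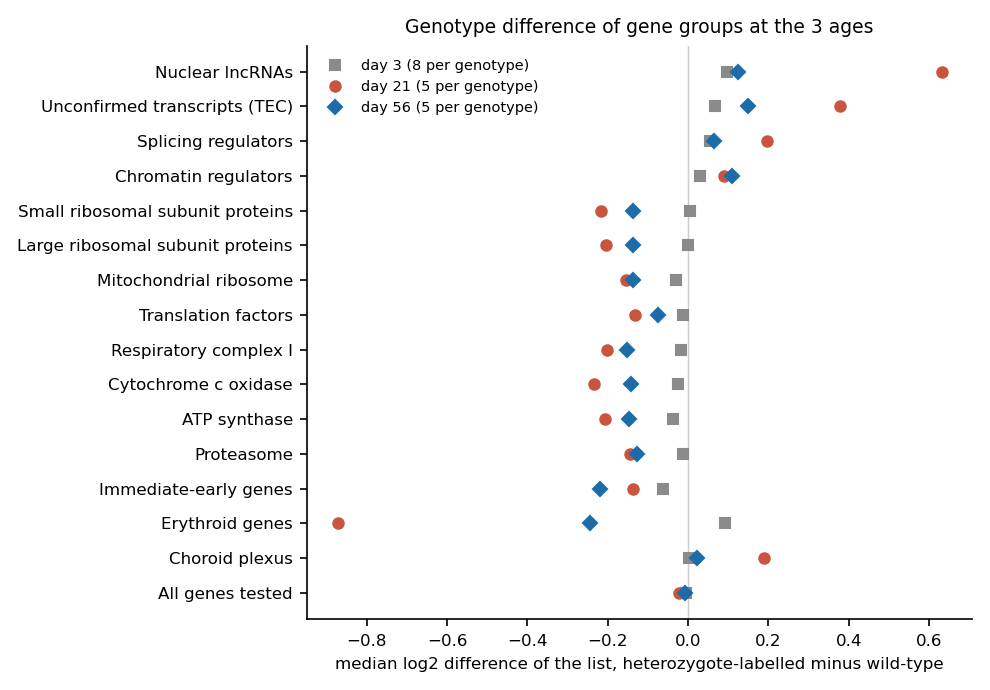
Median log2 difference between heterozygote-labelled and wild-type brains over the members of 15 gene groups, and over all genes, at P3, P21 and P56. The P21 points lie at -0.87 for erythroid genes, 0.63 for nuclear lncRNAs and -0.22 and -0.21 for the ribosomal subunits, while the P3 points of the ribosomal lists lie at 0.0056 and -0.00093.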

How the data were processed

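RNA of 10 P21 brains was made into libraries with the unstranded TruSeq RNA v2 kit, per the labels' protocols. Per the submitters' processing notes, their tools were DESeq2 1.26.0, Salmon 1.1.0 and R 3.6.2, and the build was GRCm38. For the annotation release, the sources used here give none. The deposited table holds a signal per gene, which was checked to be a scaled and not a raw count: 0.748% of values were whole and the median ratio of a library's values to the geometric means over libraries was 1.01 in each, as scaling by size factors gives. It has 19164 genes, of which 19150 identifiers matched GENCODE M21 and 14 did not. Depth is unknown, so no counting interval is given.

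A value of 1 was added before the log2 step. Genes with at least 10 in at least 5 of the 10 libraries were kept, so 17157 were tested. The test was that of limma 3.58.1 under R 4.3.3 (trend and robust options, two-sided, Benjamini-Hochberg over all genes tested, 0.05). A limma fit of 6 groups over 36 libraries gave the differences between ages. The procedure was tested on simulated data. Promoter windows are from RefSeq (GRCm38.p6).

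The design foresaw counts or normalized values, and the branch for normalized values was used. The groups, the 48 gene lists and the tests were chosen with earlier results of these data known. Lists are described by counts and medians, with no test. Of the listed symbols, 12 could not be matched. Named genes are Myt1l; the 12 higher and 12 lower genes of smallest p with a mean of at least 20 and no clone, predicted or Rik name; the 6 of largest difference each way with a mean of at least 100 and groups apart; up to 4 members of each list by p and the one of largest difference; genes called in the fit of 36 libraries; and 5 genes per contrast between ages. Only some of these are printed. Alternatives covered scaling, filters, added values, library weights, prefix and replicate blocks, a length trend and each library left out.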

Additional observations from a re-analysis of the deposited data

Results flagged for a closer look

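In groups of 5 libraries, 1 library was compared with the other 4 for 86 genes and gene lists, and in 21 of 172 groups it lay far from the others. Chance alone does this in about 1 in 20 groups, and the lists share libraries and are not independent. The part of dissection, depth or RNA quality was not tested.

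Wild-type replicate 5 accounted for most of them. Its list mean against the wild-type mean was -0.88 for endothelium, -0.58 for myelinating oligodendrocytes, -0.50 for astrocytes, -0.46 for basement membrane and perineuronal matrix, -0.44 for oligodendrocyte precursors and -0.44 for pericytes and smooth muscle. It was -0.40 for microglia, -0.37 for meningeal fibroblasts and fibrillar matrix, -0.21 for the Notch pathway and -0.13 for the Wnt pathway. It stood above the other wild-type libraries at 0.25 for cortical projection neurons, 0.16 for the proteasome and 0.12 for postsynaptic scaffolds. Among single genes, that library had 7359 for Sub1, against 6028 to 6336 in the other 4, and 382 for Krt12, against 252 to 287.

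Wild-type replicate 2 had a value of 727 for Bbs2, above 511 to 560 in the others. Heterozygote-labelled replicate 4 stood apart for Cplane1, at 9176 against 1525 to 2551, and for astrocytes, at 0.097. Heterozygote-labelled replicate 3 had 123 for Acta1, below 173 to 193, replicate 1 lay at -0.18 for pericytes and smooth muscle, and replicate 5 at -0.38 for choroid plexus.

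Gm31513 stood out because its genotype difference was not the same at 2 ages. The difference at P21 exceeded that at P56 by 2.82 on the log2 scale (limma adjusted p = 0.0282). Its values were low, with a P56 mean of 1.62 in heterozygote-labelled and 11.9 in wild-type libraries.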

How the results depend on the processing

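The main P21 fit called 0 genes, so the only called direction was that of Gm31513 against P56, and no alternative turned it. Medians of several described lists did change sign, such as those of microglia, astrocytes and endothelium within prefix 11. Of the P21 genes, limma called 1 with an added value of 8, 1 with library quality weights, 2 within prefix 11, 1 within prefix 24, 43 in the fit of all 36 libraries, and 0 to 1 when each library was left out (1 without heterozygote-labelled replicate 4). The genes with an unadjusted p under 0.05 numbered 3814 with quality weights, 1023 with the prefix block, 410 within prefix 11, 581 within prefix 24, 1314 without prefix 16, and 1371 (without heterozygote-labelled replicate 3) to 3795 (without replicate 4) when each library was left out, with 1574 without replicate 2. The genes called for a difference from P56 numbered 0 to 3, and for a difference from P3 0 to 1 (1 without heterozygote-labelled or wild-type replicate 5). The cause of these shifts was not tested. The TEC gene Gm42429 was the call with an added value of 8 and with quality weights.

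The replicate numbers did not pair the samples, with correlations of same-numbered deviations of -0.091, 0.024, -0.12, 0.11 and 0.11. With the number as a block, 0 genes were called, 2548 had an unadjusted p under 0.05, Myt1l differed by 0.10 (limma adjusted p = 0.465), and the calls for a difference from P3 and from P56 were 0 and 1.

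Depth is unknown, so no value carries a counting error. The prefix and the genotype overlap only in part: prefix 16 is wild-type alone and prefix 24 has 1 wild-type library. With 5 brains per group, the absence of calls does not show that the genotypes were alike.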
